A study of Mus musculus with 12 samples.

Results

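The 10 genes described here carry glucose into cells, interconvert pyruvate and lactate, or carry lactate out, and were followed in the nucleus pulposus of mice with Opa1 deleted in disc and cartilage. They were the glucose transporter genes Slc2a1, Slc2a3, Slc2a4, Slc2a6 and Slc2a8, the monocarboxylate transporter genes Slc16a1 and Slc16a3, their partner Bsg, and the lactate dehydrogenase genes Ldha and Ldhb. They were taken by exact gene symbol, each symbol matched 1 row, and they make up 10 of the 32285 genes of the deposited count table. Opa1 encodes a mitochondrial GTPase needed for fusion of inner membranes and for the form of cristae. The nucleus pulposus, which is the soft centre of a spinal disc, was dissected from the tails of 6 Opa1cKO and 6 WT mice on a C57BL/6-129/SvEv background at 12 months of age, and each mouse gave 1 RNA library. Opa1cKO mice lost Opa1 at 3 months through AcanCre, a Cre recombinase driven from the aggrecan gene in disc and cartilage, and were aged for 9 further months. Both genotypes received 100 mg/kg tamoxifen on 3 days, so the drug is common to both. Whether WT mice carried Cre is not stated in the labels.

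Glucose crosses the plasma membrane through facilitative carriers of the SLC2 family, and glycolysis turns it into pyruvate. Lactate dehydrogenase, a tetramer of A and B subunits, reduces pyruvate to lactate and restores the NAD+ that glycolysis consumes. Lactate then leaves with a proton through SLC16 carriers, whose passage to the cell surface depends on the glycoprotein basigin (Bsg). The nucleus pulposus has almost no blood vessels and is known as a low-oxygen, strongly glycolytic tissue, in which several of these genes are targets of hypoxia-inducible factor.

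Libraries held 37268242 to 56618266 counts in Opa1cKO and 45657321 to 53261644 in WT. Opa1 itself ranged from 30.2 to 47.7 CPM (counts scaled by library total and TMM factor) in Opa1cKO, with a median of 40.8, against 69.3 to 118 CPM in WT, with a median of 108. The ranges did not overlap, and the gene was lower by 1.22 on the log2 scale in Opa1cKO (log2 fold change -1.22, SE 0.116, edgeR adjusted p = 3.05e-05). The count pools deleted and intact exons and all cells of the sample. Sex-linked reads (Xist against 4 Y-linked genes) contradicted the labelled sex of 4 libraries, Opa1cKO 4 and WT 4, 5 and 6. Labelled sex was a covariate of the fit, so results are also given without those libraries. Without them the males left were Opa1cKO 1, 2 and 3, with no WT male. With labelled sex in that fit, its genotype difference rests on the females, Opa1cKO 5 and 6 against WT 1, 2 and 3. The 13 nucleus pulposus markers summed to 42924 to 56689 CPM in Opa1cKO and 46353 to 60031 CPM in WT, and ranged widely among themselves. Car3 alone averaged 30376 CPM in Opa1cKO and 28954 CPM in WT, so the sums mostly reflect this gene. The notochord factor T averaged 2882 CPM in Opa1cKO and 2719 CPM in WT, and the aggrecan gene Acan 8628 CPM in Opa1cKO and 13062 CPM in WT. Foxa1 and Foxa2 stayed under 10 CPM, and Shh and Noto under 1 CPM, on average in both genotypes.

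In all, 4 of the 10 genes fell in Opa1cKO and none rose. The lactate exporter gene Slc16a3 was 3.11-fold lower, Bsg 2.34-fold lower, Ldha 1.84-fold lower and the main glucose transporter gene Slc2a1 1.72-fold lower. The 4 falls were also the 4 genes whose Opa1cKO and WT ranges did not overlap. Of all 15229 genes tested, 10.2% were called in either direction, 5.13% lower and 5.1% higher. Ranges did not overlap for 6.41% of them, 3.64% with Opa1cKO lower and 2.77% with Opa1cKO higher. The median log2 fold change was -0.32 over the 10 genes and 0.01 over all genes tested. Below 0 lay 7 of the 10, with Slc2a3 and Slc2a8 both at -0.06, against 7326 of all 15229 genes tested. In bulk tissue, fewer cells of a type and less RNA per cell cannot be told apart. The same 4 genes were the ones called without the 4 libraries of contradicted sex, where 137 of 15674 genes tested were lower and 188 higher.

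On a per-length scale (TPM, the deposited length-scaled abundance), 3 of the genes stood far above the rest. In Opa1cKO, Slc2a1 averaged 1421 ± 200.4 TPM, Ldha 1178 ± 182 TPM and Bsg 1053 ± 251 TPM (SD, n = 6). In WT, Slc2a1 averaged 2529 ± 338 TPM, Bsg 2289 ± 306 TPM and Ldha 2134 ± 230 TPM (SD, n = 6). Within each genotype these 3 levels overlapped across libraries and did not overlap with the next one down. The middle of the order differed between genotypes, because Slc16a3 stood below Slc16a1 in Opa1cKO, at 36.6 ± 7.90 TPM, and above Ldhb in WT, at 114 ± 21.9 TPM. Ldhb averaged 104 ± 10.8 TPM in Opa1cKO and 96.8 ± 11.9 TPM in WT, and Slc2a3 60.6 ± 9.51 TPM in Opa1cKO and 63.05 ± 11.2 TPM in WT. In Opa1cKO the ranges of Slc2a3, Slc16a1 and Slc16a3 overlapped from one to the next, and in WT Slc16a3 overlapped with Ldhb, and Slc16a1 with Slc2a8. Slc2a8, Slc2a4 and Slc2a6 closed the order in both genotypes.

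**Figure D1:**
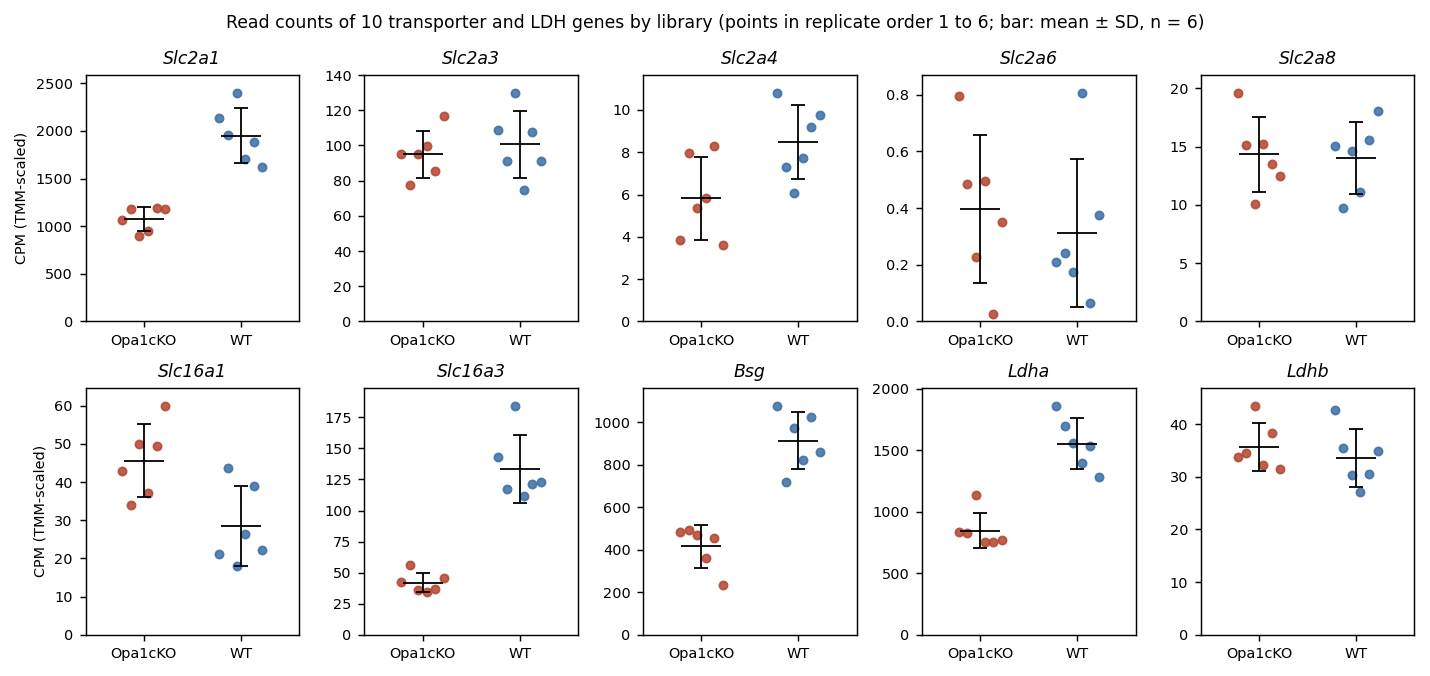
CPM of the 10 genes in each library, Opa1cKO left and WT right in each panel, each panel with its own axis starting at 0; points are libraries in replicate order and bars show the mean and SD of 6 libraries. Slc2a1, Slc16a3, Bsg and Ldha separate completely between genotypes, with all Opa1cKO libraries lower, and the other 6 genes overlap.

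Slc16a3 (ENSMUSG00000025161, chromosome 11, 120948480 to 120960868, plus strand of mm10) encodes MCT4, a carrier suited to lactate export from glycolytic cells. It ranged from 34.7 to 55.8 CPM in Opa1cKO, with a median of 39.8, against 111 to 184 CPM in WT, with a median of 122. The ranges were far apart, and Opa1cKO 2 and WT 3 were the highest libraries of their genotypes. The fitted log2 difference was -1.64 (SE 0.154, edgeR adjusted p = 3.48e-05), 27th by p among all genes tested. It was -1.84 once the libraries of contradicted sex were removed (adjusted p = 0.00978).

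Slc16a1 (ENSMUSG00000032902, chromosome 3, 104638668 to 104658462, plus strand) encodes MCT1, a carrier that moves lactate and pyruvate in either direction. It ranged from 34.0 to 59.9 CPM in Opa1cKO, with a median of 46.2, against 18.1 to 43.7 CPM in WT, with a median of 24.4. The ranges overlapped because WT 2 and WT 5 stood among the Opa1cKO values. Slc16a1 had a log2 fold change of 0.71 (SE 0.228, 95% interval 0.20 to 1.23) and did not pass (edgeR adjusted p = 0.0668). It passed without WT 2 (0.84, adjusted p = 0.0269), without WT 5 (0.95, adjusted p = 0.0275), with DESeq2 (0.71, adjusted p = 0.0165) and with limma-voom (0.79, adjusted p = 0.0479). It was 0.98 once the libraries of contradicted sex were removed (adjusted p = 0.170). Within its introns on the same strand lie 2 transcripts, with 1602 and 560 counts over all libraries against 20660 for Slc16a1, and none of their exons overlaps one of its own.

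Bsg (ENSMUSG00000023175, chromosome 10, 79704491 to 79711969, plus strand) encodes basigin, the partner that MCT1 and MCT4 share. It ranged from 232 to 494 CPM in Opa1cKO, with a median of 463, against 719 to 1076 CPM in WT, with a median of 919. Opa1cKO 6 was the lowest library, and the other 5 Opa1cKO libraries lay at 359.6 CPM or above. Bsg fell by 1.23 on the log2 scale (SE 0.174, edgeR adjusted p = 0.000804), with a value of -1.03 when Opa1cKO 6 was left out (adjusted p = 0.000709) and -1.42 once the libraries of contradicted sex were removed (adjusted p = 0.0411).

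Ldha (ENSMUSG00000063229, chromosome 7, 46841475 to 46855627, plus strand) encodes the A subunit, the form that predominates in glycolytic tissue. It ranged from 753 to 1133.5 CPM in Opa1cKO, with a median of 799, against 1280 to 1859 CPM in WT, with a median of 1548. All Opa1cKO libraries were lower than all WT libraries, Opa1cKO 3 being the nearest to the WT range. Its fitted log2 fold change was -0.88 (SE 0.138, edgeR adjusted p = 0.00150), -0.96 without Opa1cKO 3 (adjusted p = 0.000239) and -1.16 once the libraries of contradicted sex were removed (adjusted p = 0.0220). The annotation holds 20 processed pseudogenes that match Ldha transcripts at 90% identity or more over at least 100 bases, and none has a row in the count table, so how reads shared with them were handled cannot be traced.

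Ldhb (ENSMUSG00000030246, chromosome 6, 142490249 to 142507957, minus strand) encodes the B subunit, which predominates in oxidative tissue such as heart. It ranged from 31.5 to 43.4 CPM in Opa1cKO, with a median of 34.1, against 27.1 to 42.8 CPM in WT, with a median of 32.8. The ranges lay over each other almost entirely. The log2 fold change was 0.09 (SE 0.124, edgeR adjusted p = 0.706), and its 95% interval ran from -0.19 to 0.37, so a change in Ldhb as large as that of Ldha lies outside it. Ldhb has 1 processed pseudogene by the same match, also without a row in the table.

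The relative abundance of paired isoforms was set beside these differences. Ldha made up 91.8 ± 0.774% of summed Ldha and Ldhb TPM in Opa1cKO and 95.6 ± 0.593% in WT (SD, n = 6 each). As a ratio, Ldha exceeded Ldhb 11.3 ± 1.04 times in Opa1cKO and 22.2 ± 2.79 times in WT, with ranges of 9.31 to 12.4 and 17.3 to 24.5. The A subunit transcript therefore remained the more abundant in each of the 12 libraries. Slc16a3 made up 43.6 ± 7.58% of summed Slc16a1 and Slc16a3 TPM in Opa1cKO and 79.3 ± 7.76% in WT, with ranges of 37.6 to 57.7% and 69.0 to 89.4%. Slc16a1 was thus the more abundant of the pair in 5 of 6 Opa1cKO libraries, all but Opa1cKO 2, and in 0 of 6 WT libraries. Summed TPM of the pair was 84.1 ± 12.8 in Opa1cKO and 143 ± 17.7 in WT. These shares follow from the single-gene levels and were not tested.

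**Figure D2:**
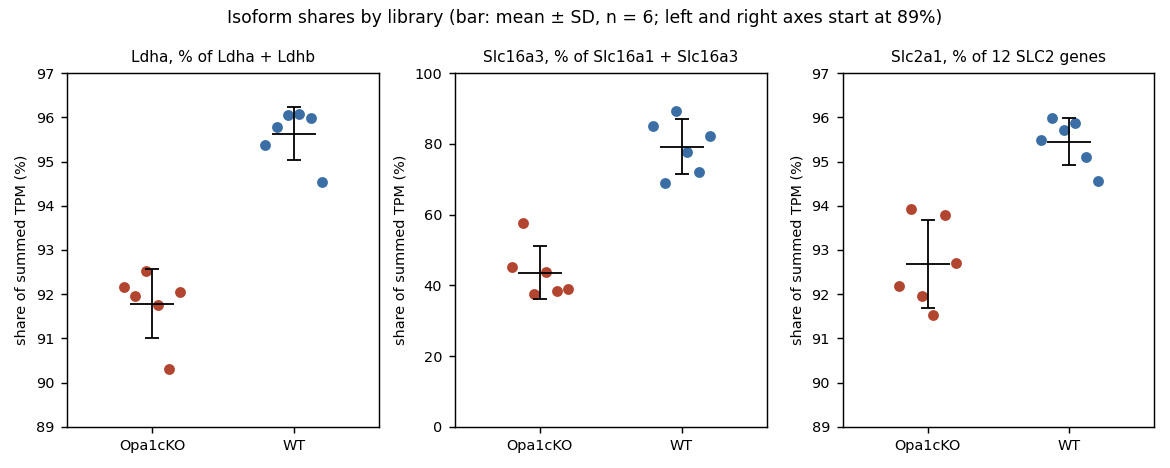
Share of summed TPM in each library for Ldha within the LDH pair, Slc16a3 within the lactate transporter pair and Slc2a1 within 12 SLC2 genes, Opa1cKO left and WT right; bars show the mean and SD of 6 libraries, and the outer panels have axes that run from 89 to 97%. No share overlaps between genotypes, the widest gap being that of Slc16a3, at 37.6 to 57.7% in Opa1cKO and 69.0 to 89.4% in WT.

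Slc2a1 (ENSMUSG00000028645, chromosome 4, 119108711 to 119137983, plus strand) encodes GLUT1, the carrier of basal glucose uptake in many tissues. It ranged from 901 to 1186 CPM in Opa1cKO, with a median of 1122, against 1622 to 2399 CPM in WT, with a median of 1921. WT 3 was the highest library, and no Opa1cKO library reached the WT range. In Slc2a1 the log2 fold change was -0.78 (SE 0.113, edgeR adjusted p = 0.000839), and -0.87 once the libraries of contradicted sex were removed (adjusted p = 0.0438). Slc2a1 made up 92.7 ± 0.990% of the summed TPM of 12 SLC2 genes in Opa1cKO and 95.5 ± 0.538% in WT (SD, n = 6 each). Summed SLC2 TPM was 1532 ± 204 in Opa1cKO and 2648 ± 347 in WT, so that Slc2a1 supplied nearly all SLC2 transcripts in both. An antisense transcript overlaps 105 bases of its exons, with 11 counts over all libraries against 855248 for Slc2a1. Over 7 genes, markers of red blood cells summed to 0.324 to 2.56 CPM in Opa1cKO and 0.0868 to 6.77 CPM in WT. None passed the filter on low counts, and Hba-a1 was at 0 in all libraries, while Slc4a1 reached 182 counts in a library and Alas2 78. How reads shared among globin genes were handled is not given, so their low counts do not show that red blood cells were absent.

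The other glucose transporter members did not pass. Slc2a3 (ENSMUSG00000003153, chromosome 6, 122727809 to 122801640, minus strand) encodes GLUT3, a high-affinity carrier best known in neurons. It ranged from 77.7 to 117 CPM in Opa1cKO, with a median of 95.1, against 74.7 to 130 CPM in WT, with a median of 99.5. The genotypes overlapped throughout, with a fitted log2 difference of -0.06 (SE 0.134, 95% interval -0.36 to 0.25, edgeR adjusted p = 0.836). That interval does not reach the value of Slc2a1.

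Slc2a4 (ENSMUSG00000018566, chromosome 11, 69942539 to 69948188, minus strand) encodes GLUT4, the insulin-responsive carrier of muscle and fat. It ranged from 3.63 to 8.29 CPM in Opa1cKO, with a median of 5.59, against 6.05 to 10.8 CPM in WT, with a median of 8.46. Slc2a4 had a log2 fold change of -0.57 (SE 0.230, 95% interval -1.10 to -0.05) and did not pass (edgeR adjusted p = 0.134), and without Opa1cKO 5 it was -0.87 and passed (adjusted p = 0.0242). It was -0.43 once the libraries of contradicted sex were removed (adjusted p = 0.608). Summed over 8 markers, skeletal muscle stood at 1.74 to 18.2 CPM in Opa1cKO and 1.39 to 17.8 CPM in WT, with 0 of 5 tested genes called. The 6 adipocyte markers summed to 0.224 to 1.81 CPM in Opa1cKO and 0.0434 to 0.651 CPM in WT, and none passed the filter on low counts.

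Slc2a8 (ENSMUSG00000026791, chromosome 2, 32972990 to 32982083, minus strand) encodes GLUT8, a carrier held largely inside the cell. It ranged from 10.1 to 19.6 CPM in Opa1cKO, with a median of 14.3, against 9.73 to 18.1 CPM in WT, with a median of 14.8. The log2 fold change was -0.06 (SE 0.163, 95% interval -0.43 to 0.31, edgeR adjusted p = 0.856), and its sign turned in 6 of 27 alternatives. Slc2a6 (ENSMUSG00000036067, chromosome 2, 27021363 to 27027998, minus strand) encodes GLUT6, an intracellular carrier. With 1 to 39 counts a library, it ranged from 0.0269 to 0.795 CPM in Opa1cKO, with a median of 0.419, against 0.0651 to 0.807 CPM in WT, with a median of 0.226. Its fitted log2 difference was 0.18 (SE 0.730, edgeR adjusted p = 0.912) with a 95% interval of -1.47 to 1.83, the widest among the 10 genes.

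Promoter windows from RefSeq (build GRCm38.p6, 250 bases before to 50 after a start site) were on hand for 7 of the 10 genes, and are not shown for Slc2a3, Slc2a4 and Bsg. They are given here for 3 of the genes that fell and, beside them, for the partner isoform of 2 of these, because these carry the comparison of isoforms above. The windows were searched for the core of the hypoxia response element, spelled ACGTG or GCGTG, on both strands (CACGT and CACGC read on the printed strand), and overlapping matches were counted as 1 site. The 6-base palindrome CACGTG, the E-box that Myc and other factors bind, contains ACGTG on both strands and is counted among them. Capitals mark the matches, and each sequence is printed 5′ to 3′ on the gene's strand.
Slc16a3, chr11:120948817-120949116, plus strand: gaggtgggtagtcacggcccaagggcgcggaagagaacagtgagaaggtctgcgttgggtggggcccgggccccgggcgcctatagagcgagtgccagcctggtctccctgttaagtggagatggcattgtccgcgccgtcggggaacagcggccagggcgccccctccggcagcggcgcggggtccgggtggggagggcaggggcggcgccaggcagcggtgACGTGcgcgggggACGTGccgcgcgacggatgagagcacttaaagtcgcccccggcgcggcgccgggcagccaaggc
Slc2a1, chr4:119108495-119108794, plus strand: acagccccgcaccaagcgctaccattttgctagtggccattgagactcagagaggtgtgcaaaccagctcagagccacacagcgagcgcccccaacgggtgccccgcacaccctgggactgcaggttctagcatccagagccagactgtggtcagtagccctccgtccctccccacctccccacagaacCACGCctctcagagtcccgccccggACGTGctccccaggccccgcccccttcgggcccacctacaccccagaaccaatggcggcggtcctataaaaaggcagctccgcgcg
Ldha, chr7:46845554-46845853, plus strand: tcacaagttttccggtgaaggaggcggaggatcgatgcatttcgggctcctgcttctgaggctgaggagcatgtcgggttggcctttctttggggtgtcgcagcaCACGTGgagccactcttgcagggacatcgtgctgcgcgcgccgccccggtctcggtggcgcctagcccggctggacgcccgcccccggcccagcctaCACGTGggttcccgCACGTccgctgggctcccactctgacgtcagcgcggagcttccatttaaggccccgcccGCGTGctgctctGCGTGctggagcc
Slc16a1, chr3:104638414-104638713, plus strand: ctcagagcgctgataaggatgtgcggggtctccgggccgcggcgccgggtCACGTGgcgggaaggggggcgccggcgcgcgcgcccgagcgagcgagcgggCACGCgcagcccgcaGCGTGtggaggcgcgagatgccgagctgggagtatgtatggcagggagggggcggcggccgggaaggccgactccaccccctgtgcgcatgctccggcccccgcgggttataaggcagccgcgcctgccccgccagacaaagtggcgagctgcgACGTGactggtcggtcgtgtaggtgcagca
Ldhb, chr6:142507908-142508207, minus strand: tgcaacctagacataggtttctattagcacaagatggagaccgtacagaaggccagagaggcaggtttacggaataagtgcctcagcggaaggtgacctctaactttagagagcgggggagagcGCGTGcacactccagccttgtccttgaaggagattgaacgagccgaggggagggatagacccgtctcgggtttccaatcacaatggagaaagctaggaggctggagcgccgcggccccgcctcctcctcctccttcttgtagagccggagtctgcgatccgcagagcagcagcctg

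The windows of the falling genes held 2 sites in Slc16a3, 2 in Slc2a1 and 5 in the more upstream of 2 Ldha starts, and the second Ldha window held 2. Slc16a1 held 4 sites, Slc2a6 4, Slc2a8 1 and Ldhb 1, so site numbers overlapped between falling and other genes among those with a window. Whether these sites bear on the falls was not tested. The 2 sites of Slc16a3 were both ACGTG, and both lay within 30 bases upstream of the start. CACGTG occurred in Ldha and Slc16a1 among these windows. Of all 32851 promoter windows of this length, 43.8% held at least 1 site, 17.3% at least 2 and 7.15% CACGTG. A match is a run of letters, and no binding was measured.

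Along the rest of the route from glucose to lactate, 11 of 23 tested entries for glycolytic enzymes fell and none rose, with a median log2 fold change of -0.54 against 0.01 over all genes tested. Of all genes tested, 5.13% were called lower and 5.1% higher. Without the libraries of contradicted sex, 7 fell and none rose, against 137 lower and 188 higher of 15674 genes tested. The 3 with the smallest p were Pfkfb3, which makes an activator of phosphofructokinase, at -1.42 (SE 0.106, edgeR adjusted p = 3.45e-06), the enolase gene Eno1 at -1.06 (SE 0.106, adjusted p = 4.68e-05) and the hexokinase gene Hk2 at -0.99 (SE 0.119, adjusted p = 0.000207). Slc16a3 fell further than any of these 23 entries, and the fall of Ldha and Slc2a1 lay among theirs. At the mitochondrial entry of pyruvate, 1 of 15 genes rose and 1 fell. The pyruvate dehydrogenase kinase gene Pdk4 rose by 0.85 (SE 0.115, adjusted p = 0.000536; 0.67 and 0.0619 without the 4 libraries of contradicted sex), and Pdk1 fell by 0.73 on the log2 scale (SE 0.0838, adjusted p = 0.000166). Pdpr, a subunit of the opposing phosphatase, was at -0.18 (adjusted p = 0.171).

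**Figure D3:**
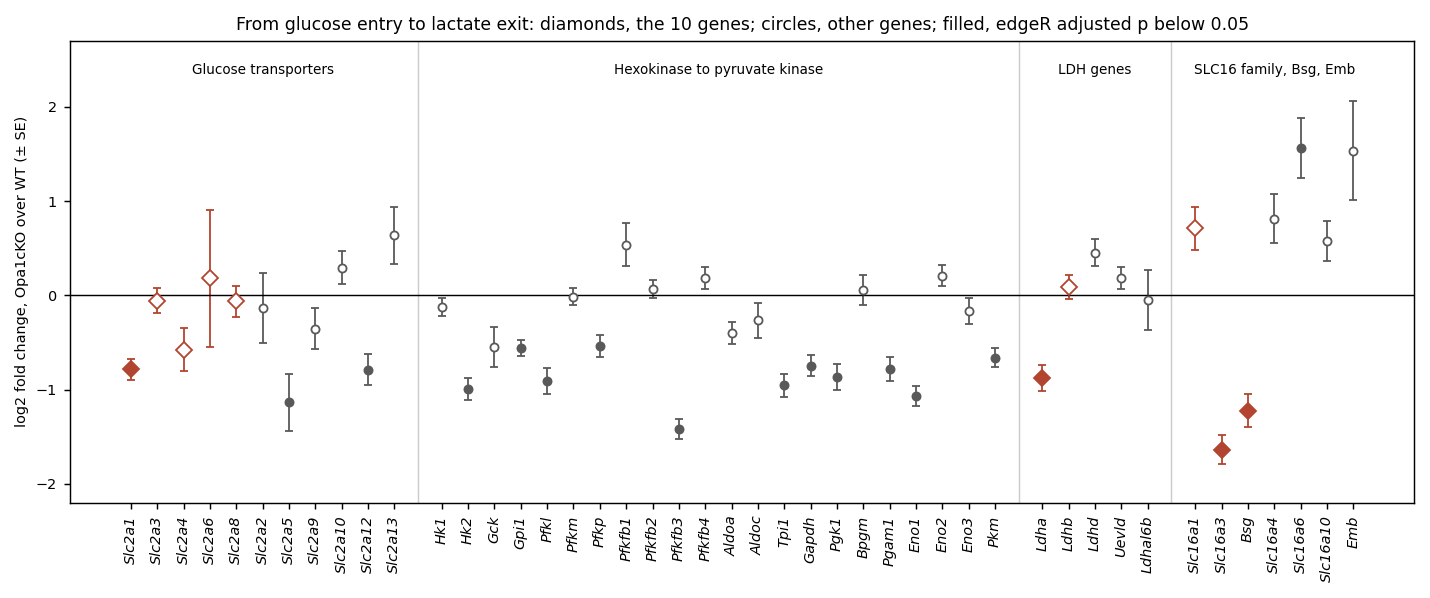
Fitted log2 fold change, Opa1cKO over WT, with its SE, for genes tested and reported here, in the order glucose transport, glycolysis, lactate dehydrogenase and SLC16 carriers; diamonds are the 10 genes, circles other genes, and filled marks have an edgeR adjusted p below 0.05. Slc2a1 at -0.78, Ldha at -0.88, Slc16a3 at -1.64 and Bsg at -1.23 lie below 0 with most glycolytic enzymes, while Ldhb at 0.09 and Slc16a1 at 0.71 do not.

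Other members of the same families were mostly scarce. Of 7 further SLC2 genes 6 were tested, 2 fell and none rose, with a median of -0.24. Slc2a12 (GLUT12) averaged 6.85 CPM in Opa1cKO and 11.7 CPM in WT, that is -0.79 on the log2 scale (SE 0.164, edgeR adjusted p = 0.00868; -0.53, adjusted p = 0.252, in labelled males alone). The fructose transporter gene Slc2a5 averaged 0.455 CPM in Opa1cKO and 1.04 CPM in WT, at -1.13 (SE 0.303, adjusted p = 0.0297), and it missed the threshold without any 1 of Opa1cKO 1, 2, 4 and 6 and WT 3, 5 and 6 (adjusted p = 0.0507 to 0.105) and after removing the libraries of contradicted sex (-0.67, adjusted p = 0.492). The inositol carrier gene Slc2a13 was at 0.64 (adjusted p = 0.203).

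Among further SLC16 genes, Slc16a6 averaged 6.21 CPM in Opa1cKO and 2.28 CPM in WT (log2 fold change 1.56, SE 0.316, edgeR adjusted p = 0.00758), a value of 1.10 when Opa1cKO 6 was left out (adjusted p = 0.0681). It did not pass once the libraries of contradicted sex were removed (1.89, adjusted p = 0.0970). Slc16a4 was at 0.81 (adjusted p = 0.0646; 0.99, adjusted p = 0.0169, without WT 4; 0.94, adjusted p = 0.0307, with no sex covariate; 0.81, adjusted p = 0.0244, with DESeq2). The alternative partner gene Emb averaged 1.85 CPM in Opa1cKO and 0.574 CPM in WT (1.53, adjusted p = 0.0807), in ranges that did not overlap. Of 5 tested genes in this list of further carriers and Emb, edgeR called 1 higher and 1 lower. DESeq2 called all 5, Emb among them, 4 higher and 1 lower. No other lactate dehydrogenase gene of 3 tested passed in the edgeR fit with labelled sex (1 at an unadjusted p under 0.05, and 1 called by DESeq2). Ldhd, for D-lactate, was at 0.45 (adjusted p = 0.0627) and passed without Opa1cKO 3 or Opa1cKO 6 (adjusted p = 0.0292 and 0.0455). With sex taken from sex-linked reads Ldhd was at 0.56 and with no sex covariate at 0.55, and it passed in both edgeR fits (adjusted p = 0.0412 and 0.0263). Uevld was at 0.18 (adjusted p = 0.354), Ldhal6b at -0.05 (adjusted p = 0.950), and Ldhc had no counts.

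Genes that set carrier position, redox shuttling or acid balance were read beside the 10.2% of all genes tested that were called in either direction. None of 12 genes for glucose transporter trafficking passed in the edgeR fit with labelled sex (median -0.04), 3 had an unadjusted p under 0.05, and DESeq2 called 3, all lower. Txnip, an arrestin that lowers surface glucose transporters, averaged 1451 CPM in Opa1cKO and 2131 CPM in WT (-0.55, adjusted p = 0.106; -0.86, adjusted p = 0.00941, without Opa1cKO 5). Its relative Arrdc4 was at -0.38 (adjusted p = 0.0837; 0.0459 without Opa1cKO 3 and 0.0380 without WT 5). Arrdc4 also passed in edgeR with sex taken from sex-linked reads (-0.46, adjusted p = 0.0151) and with no sex covariate (-0.38, adjusted p = 0.0425). Lnpep, which travels with GLUT4, was at -0.24 (adjusted p = 0.106). Of 10 genes of the shuttles that reoxidise cytosolic NADH, Gpd1l rose (0.46, SE 0.0811, adjusted p = 0.00325; 0.104 once the libraries of contradicted sex were removed), while Got2 was at 0.24 (adjusted p = 0.105) and Slc25a13 at -0.29 (adjusted p = 0.124). Of 4 tested acid-handling genes, the bicarbonate cotransporter gene Slc4a4 fell by 1.91 (SE 0.207, adjusted p = 0.000106), with Slc4a7 at 0.31 (adjusted p = 0.106; 0.0417 without Opa1cKO 5).

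Of 17 tested hypoxia-inducible genes outside glycolysis 13 fell and 1 rose, with a median of -0.86. Over all genes tested, 5.13% were called lower and 5.1% higher. Without the libraries of contradicted sex 9 of the list fell and 1 rose, while 137 of 15674 genes tested fell and 188 rose. Adm, a vasodilator peptide gene, was at -2.95, the mitochondrial protein gene Higd1a at -1.52 and Ndrg1 at -1.26 (edgeR adjusted p = 1.38e-07, 1.20e-05 and 3.02e-05). The exception among the calls was Angptl4, at 2.39 (SE 0.295, adjusted p = 0.000249). It was scarce, at an average of 3.66 CPM in Opa1cKO and 0.810 CPM in WT. In the hypoxia-inducible factor system 4 of 9 fell and 1 rose: Egln3 and Egln1, prolyl hydroxylases of the factor, were at -2.48 and -1.08, and Hif1a at 0.58 (adjusted p = 1.42e-06, 2.21e-06 and 0.00130). Without the 4 libraries of contradicted sex 2 of the list fell and none rose (Hif1a adjusted p = 0.0723). Of 4 carbohydrate-responsive factors Mlxip (MondoA) rose by 0.56 (SE 0.114, adjusted p = 0.00754), with Mlx at -0.24 and Mlxipl at -0.18 (adjusted p = 0.218 and 0.870). These lists were chosen with earlier results of these data known.

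Likeness of the 10 genes to each other and to other genes was measured as Pearson's r of log2(CPM + 1) centred within genotype over the 12 libraries, and is a description, since all genes share the libraries' depth and composition. Among the 10 genes, Slc2a1 and Slc16a3 had r = 0.767 (Spearman's rho = 0.643; r = 0.703 without the 2 libraries farthest from the median of Slc2a1). Ldha and Ldhb had r = 0.664 (rho = 0.413), which fell to 0.077 without the 2 farthest and so rested on those libraries. Of 9011 other genes at 10 CPM or more, the nearest to Ldha were Fam162a, a hypoxia-inducible gene, Ift52 and Atp5o (r = 0.970, 0.966 and 0.965), and the nearest to Slc16a3 were Ap2a2, Mark4 and Rubcn (0.851, 0.812 and 0.807). The nearest to Slc2a1 were Pgpep1, Ubac1 and Keap1 (0.827, 0.802 and 0.797), and to Bsg Ndufb8, Abhd14b and Alkbh6 (0.933, 0.920 and 0.916). Slc16a1 was nearest to Capza1, Elp2 and Tmem135 (0.931, 0.909 and 0.882) and Ldhb to Rab9, Ube2l3 and Ndufa8 (0.943, 0.941 and 0.935). For the remaining transporters the nearest were Pdgfrb, Slc6a12 and Htra3 for Slc2a3 (0.877, 0.848 and 0.843), Rbm4b, Xpc and Satb1 for Slc2a4 (0.887, 0.879 and 0.874), Luc7l, Bend3 and Fam126a for Slc2a6 (0.854, 0.829 and 0.828), and Mt1, Gpr137 and Washc1 for Slc2a8 (0.963, 0.962 and 0.958).

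The genotype difference of the 10 genes was also compared between labelled sexes. No member passed for the interaction of genotype with labelled sex (edgeR, smallest adjusted p = 0.803, 0 members at an unadjusted p under 0.05), nor did any of the 15229 genes (0%, with 899 at an unadjusted p under 0.05, 6 called by DESeq2, 22 by edgeR without Opa1cKO 5 and 2 without WT 6). The 4 libraries of contradicted sex limit what that term and the splits by label measure. By sex-linked reads, the labelled males were 3 male and 1 female Opa1cKO against 2 female WT libraries, and the labelled females 2 female Opa1cKO against 3 female and 1 male WT libraries, so neither split is a comparison within 1 sex. Among libraries labelled female (2 Opa1cKO, 4 WT), Slc16a3 and Ldha passed, with Slc2a1 at -0.78 and Bsg at -1.38 (adjusted p = 0.0882 and 0.0618). Among libraries labelled male (4 Opa1cKO, 2 WT), Slc16a3, Bsg and Slc2a1 passed, with Ldha at -0.66 (adjusted p = 0.0893).

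**Figure D4:**
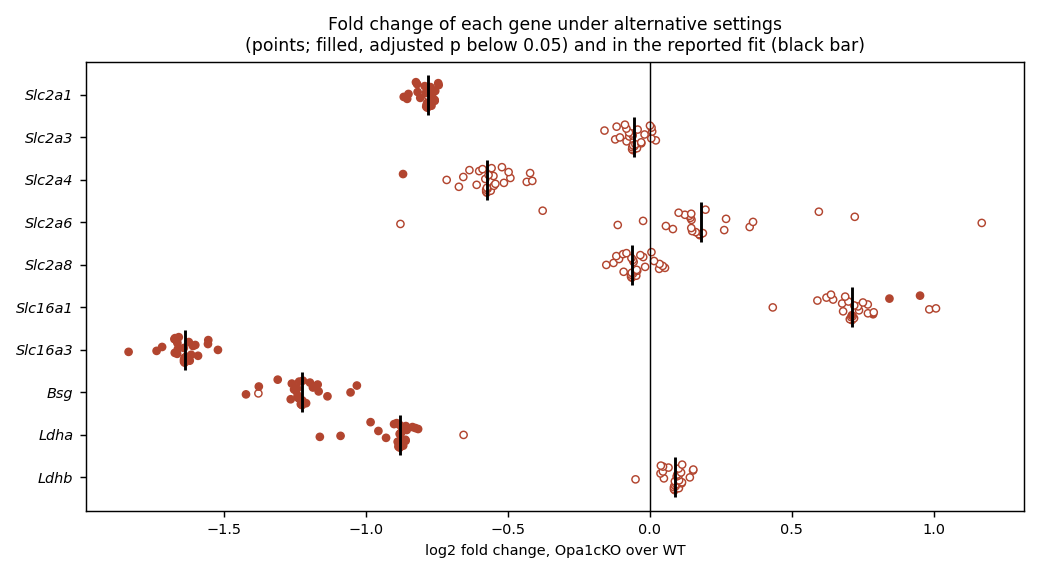
Log2 fold change, Opa1cKO over WT, of each of the 10 genes under 26 or 27 alternative settings (points, filled where the adjusted p is below 0.05) and in the reported fit (black bars). Slc16a3 stays between -1.84 and -1.52 and is filled in all 27, while Slc2a3, Slc2a6, Slc2a8 and Ldhb have points on both sides of 0.

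Markers of other cells that the dissection could hold were read beside the 10.2% of all genes tested that were called in either direction. Of 8 macrophage markers 4 were tested, and 1 was called higher and 2 lower. Cd68 rose by 1.28, and Csf1r and Cd163 fell by 0.88 and 3.98 (edgeR adjusted p = 0.000152, 0.00468 and 4.45e-05). The ranges of Cd68 and Cd163 did not overlap between genotypes. The macrophage list summed to 97.2 to 117 CPM in Opa1cKO and 105 to 197 CPM in WT. Ptprc, C1qa, C1qb and Adgre1 were each under 1 CPM on average. Endothelial markers summed to 6.30 to 11.3 CPM in Opa1cKO and 4.42 to 9.50 CPM in WT, and annulus and tendon markers to 1550 to 2467 CPM in Opa1cKO and 1303 to 1932 CPM in WT, with 0 edgeR calls in either list (1 and 0 at an unadjusted p under 0.05). Endplate chondrocyte markers summed to 12.9 to 49.4 CPM in Opa1cKO and 7.02 to 20.5 CPM in WT, with 0 of 4 tested genes called. Of 2 tested osteoblast markers 1 fell (Phex, -1.47, SE 0.314), and Ibsp was not called (-1.56, edgeR adjusted p = 0.259). Bglap, Dmp1 and Sp7 averaged under 1 CPM in both genotypes. The osteoblast list summed to 1.26 to 2.39 CPM in Opa1cKO and 2.34 to 7.48 CPM in WT. Of 2 tested keratinocyte markers 1 rose (Krtdap, 1.52, adjusted p = 0.0271), and Krt10 was at -0.19 (adjusted p = 0.614). Krt1, Krt5 and Krt14 averaged under 1 CPM in both genotypes. Neutrophil and nerve markers had 0 edgeR calls (0 and 1 at an unadjusted p under 0.05). Of 12 tested nucleus pulposus markers 1 was called, against 10.2% of all genes tested. It was Cdh2, which fell by 0.43 (edgeR adjusted p = 0.0137). With Cdh2, 4 had an unadjusted p under 0.05, all at lower levels in Opa1cKO. The other 3 were Acan at -0.53, Foxa2 at -1.08 and Cd24a at -0.34 (edgeR adjusted p = 0.103, 0.106 and 0.154). The part of these cells in the results was not tested.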

How the data were processed

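Nucleus pulposus RNA of 6 Opa1cKO and 6 WT mice was sequenced from 50 ng of input with a stranded, ribosome-depleted kit and 14 PCR cycles, per the labels' protocols. The authors deposited whole-number read counts per gene and a TPM table (length-scaled). STAR 2.7.11b and the mm10 build are named in the submitters' processing notes, and the counter, annotation and strand setting were not given in the sources used here. Without molecular identifiers PCR duplicates add to the counts, and 1 CPM rests on 37.2 to 56.9 reads.

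Counts of all 12 libraries were fitted in R 4.3.3 with edgeR 4.0.16, using genotype and labelled sex as terms, TMM scaling and robust quasi-likelihood dispersion. Genes with low counts were removed by filterByExpr (minimum 10). P-values were adjusted by Benjamini-Hochberg across the 15229 genes left, with 0.05 as the threshold for a call. Intervals of 95% use 9 residual degrees of freedom. The fits were tested on simulated counts. Named genes were the 10 members, Opa1, up to 3 genes of smallest p per context list and the 3 nearest genes per member; Angptl4, T, Noto, Emb, Ldhc and the cell markers named were added after their values were seen. Some genes that this rule names are not reported here. The members and lists were chosen with earlier results of these data known. Positions come from GENCODE M21, which matched 32235 of 32285 identifiers, and near-identical copies from BLAST 2.17.0. Alternatives used DESeq2 1.42.0, limma 3.58.1 (also on log2 TPM plus 1 or 0.1), other scalings and filters, sex by sex-linked reads, a replicate block and each library left out. Every pair of libraries differed by more than counting noise (lowest chi-square per degree of freedom 33.2).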

Additional observations from a re-analysis of the deposited data

Results flagged for a closer look

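Ldha stood at 1133.5 CPM in Opa1cKO 3, far from the other 5 Opa1cKO libraries, which lay between 753 and 838 CPM. The Ldha share of summed Ldha and Ldhb TPM was 90.3% in Opa1cKO 5, below the other 5 Opa1cKO libraries at 91.7 to 92.5%. Both are single libraries at the end of their group's range, and the direction between genotypes is the same with or without either one. Groups of 6 were examined for 26 sets of values, and chance flags about 1 in 20.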

How the results depend on the processing

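Slc16a3 passed in all 27 alternatives (-1.84 to -1.52), and Slc2a1, Bsg and Ldha each in 26 of 27, the exceptions being labelled females alone for Slc2a1 and Bsg and labelled males alone for Ldha. The number of the 10 genes called was 2 in labelled females alone and 4 to 5 with any 1 library left out, against 4 as reported. The number of all genes called, 1558 as reported, was 325 without the libraries of contradicted sex, 300 in labelled females and 419 in labelled males (fewer libraries in each), 554 at an adjusted p below 0.01, 2473 below 0.1, and 819 to 1995 with 1 library left out, the lowest being 819 without Opa1cKO 6 and 973 without WT 6. The Ldha share differed by -3.85 percentage points in TPM and -1.95 in CPM, and the Slc2a1 share by -2.77 in TPM and -4.25 in CPM, which does not correct for gene length.

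Signs turned only for genes that were not called. When sex was taken from sex-linked reads, Slc2a3 was at 0.021, Slc2a8 at 0.053 and Mlxipl at 0.13. Without the libraries of contradicted sex, Slc2a6 was at -0.11, Ldhb at -0.051, Ldhal6b at 0.33 and Mlxipl at 0.96. In labelled females, Slc2a3 was at 0.0048, Slc2a6 at -0.88, Slc2a8 at 0.045, Ldhal6b at 0.077 and Mlxipl at 0.92. Slc2a8 was at 0.032 with no sex covariate. With 1 library left out, Slc2a3 ran from -0.16 to 0.0079, Slc2a6 from -0.38 to 0.72, Slc2a8 from -0.13 to 0.015, Ldhal6b from -0.19 to 0.068 and Mlxipl from -0.83 to 0.28. The cause was not tested.

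Replicate numbers name mice and did not pair the libraries: same-numbered libraries correlated at -0.333 to 0.125 in their deviations from the genotype means, with 1 of 6 over 0.1. With a replicate block in place of labelled sex, 1269 genes and 4 of the 10 were called, Slc2a8 was at 0.034 and Mlxipl at 0.034. Replicates are separate mice. Slc2a6 rests on 1 to 39 counts a library, and its SD was 66.0% of the mean in Opa1cKO and 84.1% in WT.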
